A study of Mus musculus with 6 samples.

Results

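The 38 Hox genes of the mouse were examined for DNA methylation in male germ cells, taken as each gene with 1 kb on either side, with cytosines measured in all libraries and at least 3 of them per gene. All 38 genes met that rule, out of 17338 genes that did so among the 21883 protein-coding or listed genes of the gene table. The Hox regions held 5392 cytosines, of 2210988 that were listed in all 6 libraries. The number per gene ran from 44 in Hoxb1 and Hoxb13 to 694 in Hoxa3, with a median of 115.5, and 710 cytosines lay in the regions of 2 or more neighbouring Hox genes. Genes were chosen by name, not by any measured value. The genes form 4 clusters on GRCm38. HoxA, with 10 genes, spans bases 52162417 to 52260880 of chromosome 6 on the minus strand. HoxB, also with 10, spans 96194316 to 96368254 of chromosome 11, HoxC, with 9, spans 102921131 to 103036856 of chromosome 15, and HoxD, with 9, spans 74668225 to 74765142 of chromosome 2, these last on the plus strand. The annotation used gives gene bounds without exons, so coding, intronic and untranslated bases were not told apart.

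The libraries were made from genomic DNA of male germ cells by reduced representation bisulfite sequencing (RRBS), which reads the CpG-rich part of the genome after bisulfite has turned unmethylated cytosines into thymine. There are 3 libraries labelled Control and 3 labelled CSDS, for chronic social defeat stress, a model in which a mouse is repeatedly confronted with an aggressive one. Strain, age, the way germ cells were purified, and whether a library is 1 animal or a pool are not given in the sources used here. P-values therefore measure the spread between these libraries, which may be technical. The listed coverage summed to between 144461049 and 168477518 reads per library, with medians of 44 to 50 reads per cytosine, and each Hox gene region rested on 1750 to 49590 reads in a library. Coverage counts reads, not molecules, so counting error is a lower bound on the error.

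Hox genes encode homeobox transcription factors that give cells their position along the body axis. They lie in the order in which they are used: low paralog numbers act toward the head and high numbers toward the tail and in the limbs and urogenital tract. In many cells outside their domain, and in germ cells, Hox promoters are known to be kept silent by Polycomb proteins on DNA that is largely unmethylated.

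Promoter sequences are printed for 4 members, chosen for the highest level at the gene start (Hoxd4), the most CpGs of any Hox stretch in the table together with a low level (Hoxa13), and the largest group differences of HoxD gene regions (Hoxd10, Hoxd13). Each is the 250 bases before a start in RefSeq's annotation of GRCm38.p6, written 5′ to 3′ on the gene's strand, and capitals mark the CpGs measured in all libraries. The stretches are chr2:74721728-74721977 (plus strand) for Hoxd4, chr6:52260881-52261130 (minus strand) for Hoxa13, chr2:74691641-74691890 (plus strand) for Hoxd10 and chr2:74667975-74668224 (plus strand) for Hoxd13.
Hoxd4: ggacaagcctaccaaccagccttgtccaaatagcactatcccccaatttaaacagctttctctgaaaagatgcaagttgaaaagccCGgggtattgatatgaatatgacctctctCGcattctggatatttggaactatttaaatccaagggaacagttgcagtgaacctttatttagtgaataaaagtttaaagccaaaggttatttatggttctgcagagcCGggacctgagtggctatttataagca
Hoxa13: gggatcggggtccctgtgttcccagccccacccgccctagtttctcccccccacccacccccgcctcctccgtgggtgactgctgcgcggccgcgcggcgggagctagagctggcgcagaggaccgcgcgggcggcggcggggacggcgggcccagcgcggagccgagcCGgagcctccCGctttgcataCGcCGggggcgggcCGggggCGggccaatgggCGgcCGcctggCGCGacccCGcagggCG
Hoxd10: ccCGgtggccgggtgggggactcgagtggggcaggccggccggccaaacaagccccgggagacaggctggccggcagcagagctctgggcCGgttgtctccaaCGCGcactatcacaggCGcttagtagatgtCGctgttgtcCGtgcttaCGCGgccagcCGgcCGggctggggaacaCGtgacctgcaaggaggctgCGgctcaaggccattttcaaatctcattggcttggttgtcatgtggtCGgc
Hoxd13: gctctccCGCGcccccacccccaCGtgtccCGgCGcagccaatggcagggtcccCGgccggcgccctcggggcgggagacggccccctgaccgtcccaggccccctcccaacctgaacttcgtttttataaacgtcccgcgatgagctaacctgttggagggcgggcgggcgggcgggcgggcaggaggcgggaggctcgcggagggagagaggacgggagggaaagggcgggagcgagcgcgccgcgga
The RefSeq table held 24 promoter entries for 22 of the members. These 250-base stretches had a median of 12.5 CpGs, against 6 over all 32851 promoters of the table. The letters CCGG, which read the same on both strands, occurred in 75.0% of the Hox stretches and 47.1% of all. Every one of the 216 measured cytosines in the Hox stretches fell on a C of the strand listed.

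The Hoxd4 stretch holds only 3 CpGs, and all were methylated. Its level was 89.8, 88.3 and 97.2% in Control and 91.8, 87.5 and 87.5% in CSDS. By contrast, the Hoxa13 stretch, with 35 CpGs of which 12 were measured, stood at 11.7, 13.5 and 8.01% in Control and 12.7, 8.02 and 8.08% in CSDS. Both sets of libraries overlapped in Hoxd4 and in Hoxa13. HOXA13 and HOXD13 pattern the digits and the urogenital tract, while HOXD10 acts in the lumbar spinal cord and hindlimb. The Hoxd10 stretch, which begins 250 bases before a start that lies inside the annotated gene, was at 15.98, 16.7 and 18.1% in Control and 14.9, 10.7 and 10.1% in CSDS. In the Hoxd13 stretch 6 of 31 CpGs were measured, all at least 196 bases before the start. Its level was 15.4, 16.3 and 16.1% in Control and 14.7, 14.3 and 12.9% in CSDS. Every CSDS library lay below every Control library in the Hoxd10 and Hoxd13 stretches, with differences of -5.01 and -2 percentage points. After the mitochondrial correction described below, the Hoxd10 difference was -1.96 points with the groups still apart, and the Hoxd13 difference turned to 1.24 points with overlapping groups.

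The 2 strands of a CpG did not always give the same value, and this sets how high levels in these regions are read. Of 2415 Hox CpGs measured on both strands, 284 (11.8%) differed by at least 50 points in the mean over the 6 libraries, against 8.05% of 904363 CpGs in the nuclear genome. In these Hox CpGs the high strand had a median level of 96.9% and the low strand 7.95%. The high strand rested on fewer reads, a median of 24.0 against 69.0. Among CpGs inside RefSeq promoter stretches of the whole genome, 48.6% of the 19906 in a CCGG had strands that far apart, and 0 of the 92520 outside a CCGG did. In the part of those stretches that lies in the Hox regions the counts were 18 of 36 and 0 of 157. The first capital pair of the Hoxd10 sequence is an example: 248 bases before the start, the plus strand read 95.8, 100 and 93.8% in Control and 100% in each CSDS library, while the minus strand read 9.8, 3.7 and 2.6% and then 3.8, 4.8 and 0.0%. CCGG is the cutting site of MspI, the enzyme commonly used in RRBS, and cut ends are commonly filled in with added nucleotides during preparation. The enzyme is not given in the sources used here, and the part of that step in these values was not tested. Of 322 Hox cytosines above 80%, 236 had an opposite strand under 20% and only 54 an opposite strand above 50%. Levels below include all cytosines unless they are said to leave out CpGs with strands at least 50 points apart. A cytosine whose opposite strand was not listed could not be judged in this way and was kept. The group differences of the clusters moved by less than 0.05 points when the discordant CpGs were left out.

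**Figure D1:**
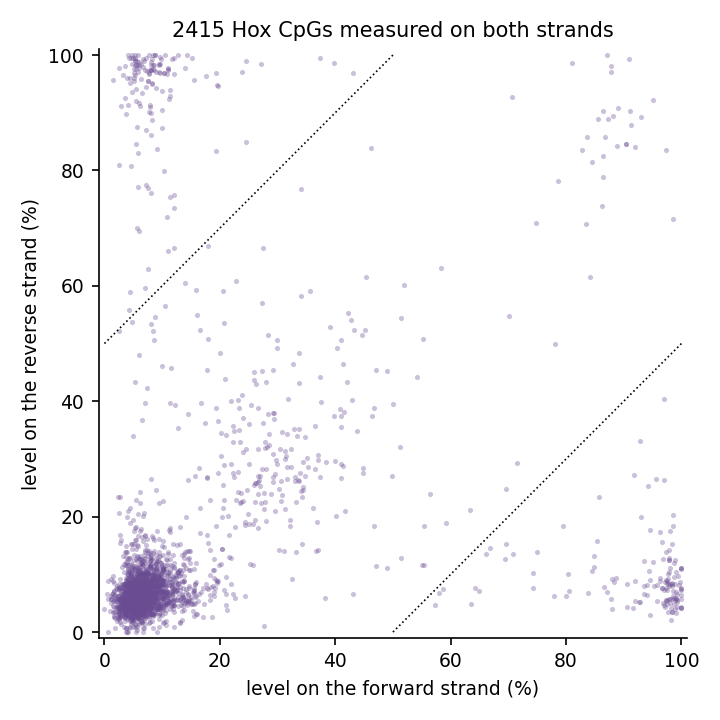
Level on the forward strand (x axis, %) against the reverse strand (y axis, %) for each of 2415 Hox CpGs, as the mean over 6 libraries, with dotted lines where the strands differ by 50 points. Most points lie near 0 on both axes, 284 lie beyond the lines with 1 strand high, and 37 are above 50% on both strands.

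Hox DNA was lowly methylated in every library. Over all 5392 cytosines the mean level was 17.4, 17.6 and 17.0% in Control and 16.65, 11.98 and 12.7% in CSDS. Cytosines of all gene regions averaged 34.75, 34.95 and 34.7% in Control and 34.1, 30.7 and 31.0% in CSDS. Without CpGs whose strands disagreed, the Hox mean was 13.2, 13.4 and 12.8% in Control and 12.5, 7.90 and 8.46% in CSDS. By this reading 79.0% of Hox CpGs were under 30% on both strands and 1.53% were above 50% on both, against 54.2% and 31.7% in the nuclear genome.

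Among the 38 gene regions the Control mean ran from 10.3% in Hoxa7 to 36.4% in Hoxd4, with a median of 16.5%. In 37 of the 38 it was under 30%, as in 48.1% of all gene regions. The HoxA genes were between 10.3 and 17.1%, the HoxB genes between 11.5 and 23.0%, the HoxC genes between 14.7 and 26.1% and the HoxD genes, Hoxd4 apart, between 11.7 and 23.0%. HoxC held the highest cluster level, 19.8% ± 0.339 (SD, n = 3) in Control, and HoxA the lowest, 15.4% ± 0.323. The order of HoxC, HoxB (18.8% ± 0.502), HoxD (16.5% ± 0.310) and HoxA was the same in all 3 Control libraries. Without strand-discordant CpGs these levels were 14.8, 14.03, 13.1 and 11.4%, in the same order. Leaving such CpGs out lowered 9 gene regions by more than 1.5 times, of which Hoxb6 moved most, from 22.99 to 12%. Levels are as deposited unless a correction is named. After the mitochondrial correction described below, the median Control level was 7.98% over the Hox regions and 24.15% over all gene regions.

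**Figure D2:**
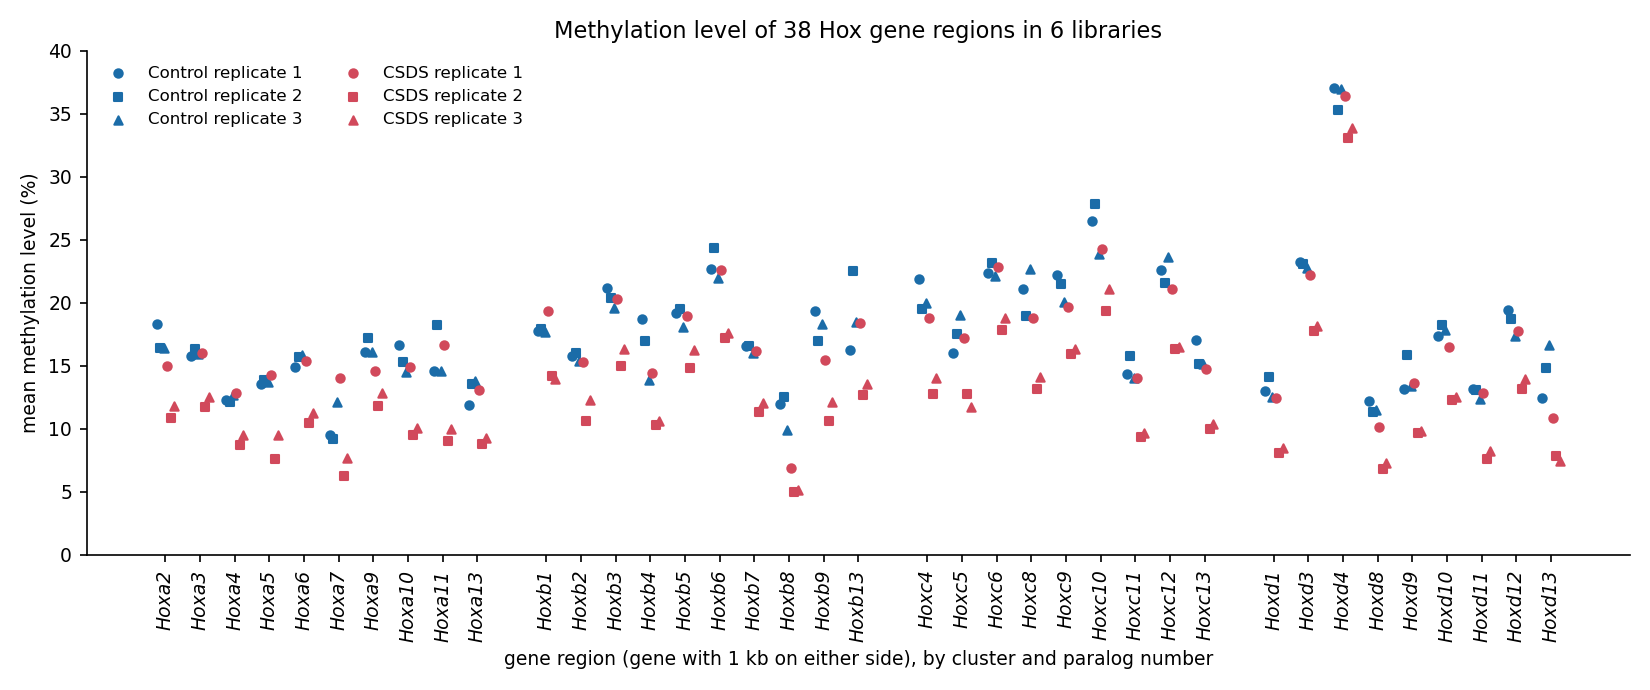
Mean methylation level (y axis, %) of each of the 38 Hox gene regions (x axis, by cluster and paralog number), with 1 point per library. Hoxd4 stands apart at 33.1 to 37.0%, and CSDS replicates 2 and 3 are the lowest libraries at every gene.

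Paralog number gave no clear order of levels. The 11 genes with paralog numbers 1 to 4, which act in the hindbrain and neck, had a median Control level of 17.1%. The 11 genes numbered 5 to 8, which act in the thorax, had 16.4%, and the 16 genes numbered 9 to 13, which act in the lumbar to tail segments and limbs, had 16.1%. Within a paralog group levels could differ widely. Group 4 ran from 12.4% in Hoxa4 to 36.4% in Hoxd4, while group 11 stayed between 12.9% in Hoxd11 and 15.8% in Hoxa11.

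Gene interiors were low in Hox genes. An interior is the part of a gene more than 1 kb from either end. For most genes the interior was highly methylated, with a median of 86.1% over 13507 genes in Control. All 29 measured Hox interiors lay below that value, with a median of 18.99%, and 25 of them were under 30%, as were 15.8% of all interiors. Without strand-discordant CpGs, 27 Hox interiors were left with a median of 12.7%, against 87.3% for all genes. At gene ends the medians were 16.9% over 52 Hox windows and 16.3% over 18217 such windows in all, each reaching 1 kb to both sides of an end. Of the Hox windows 90.4% were under 30% and 3.85% at 80% or more, against 73.5 and 18.4% of all.

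Levels over whole gene regions were also compared by how densely the listed cytosines were packed. Where at least 20 cytosines were listed within 100 bp on either side, Hox DNA had 13.2% ± 0.198 in Control and all gene regions had 13.2% ± 0.198. Where only 1 to 6 were listed, Hox DNA stood at 48.1% ± 0.302 and all gene regions at 82.2% ± 0.175. Without strand-discordant CpGs the sparse values were 44.9 and 84.1% and the dense values 10.7 and 11.1%. The sparse class holds 235 of the 5392 Hox cytosines and the dense class 3549, so most Hox values come from dense DNA. The gap in the sparse class was many times the SD between libraries. That SD does not measure the spread among loci, and the gap was not tested.

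**Figure D3:**
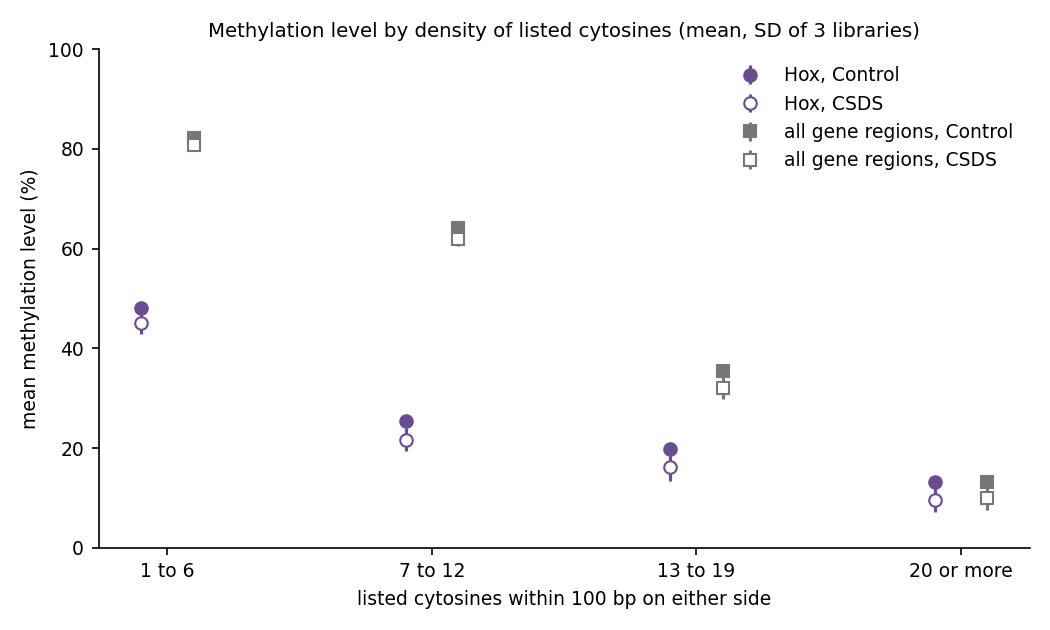
Mean methylation level (y axis, %) of Hox cytosines and of cytosines in all gene regions, by the number of listed cytosines within 100 bp (x axis), as the mean and SD of 3 libraries per group. In Control, Hox and all gene regions are both at 13.2% in the densest class and at 48.1 and 82.2% in the sparsest.

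Hoxd4, a gene that acts in the hindbrain and upper neck, carried the main exception. The window of 1 kb either side of its annotated start, with 18 cytosines and none strand-discordant, was at 90.3, 83.0 and 92.0% in Control and 89.3, 87.9 and 85.9% in CSDS. The libraries of both groups overlapped there, with a difference of -0.708 points. Tiles of 500 bp from 1.73 kb before that start to 0.27 kb after it stood at 92.8, 91.2, 88.2 and 84.6% in Control. The first 2 lie before the annotated gene and, like the whole of Hoxd4, inside the annotated bounds of Hoxd3. From 3.77 to 14.77 kb past that start, the tiles were between 9.37 and 41.0%. Among the tiles of Hoxd4, that with the most cytosines, 28 at 5.77 kb, was at 11.7% in Control. The start of Hoxd3 itself, 9.73 kb before that of Hoxd4, was at 10.1, 11.7 and 10.95% in Control and 12.3, 7.43 and 8.07% in CSDS. Thus the low levels at the Hoxd3 start and the high levels at the annotated start of Hoxd4 lay within the same annotated gene.

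**Figure D4:**
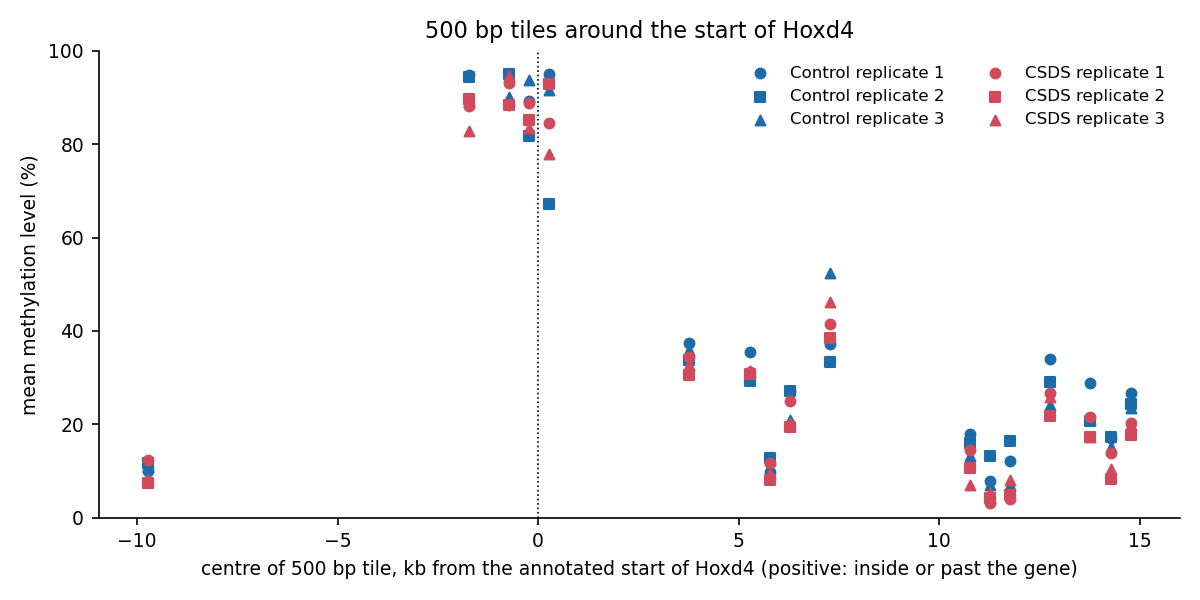
Mean methylation level (y axis, %) of 500 bp tiles by the distance of their centre from the annotated start of Hoxd4 (x axis, kb), with 1 point per library. The 4 tiles around the start are at 67.2 to 95.1% in every library, and those from 3.77 to 14.77 kb are at 52.5% or below.

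Other methylated stretches were short. The far end of Hoxb7, which acts in the thorax, had 6 cytosines at 87.3, 76.1 and 76.7% in Control and 79.99, 73.9 and 68.5% in CSDS. In all, 11 of the 227 Hox tiles were at 80% or more in Control, as were 60.2% of all tiles, and 143 were under 20%, as were 19.1% of all. Those high tiles held 3 to 15 cytosines each at 83.7 to 92.8%, and all 11 reached 80% when strand-discordant CpGs were left out. They lay at the start of Hoxd4 and in Hoxd3 upstream of it, in the interiors of Hoxa3, Hoxb3, Hoxb9, Hoxc6 and Hoxc9, and at the far end of Hoxb7. The tile in Hoxc9, a thoracic and lumbar gene, had 15 cytosines at 88.4, 83.6 and 83.0% in Control and 86.6, 84.0 and 81.9% in CSDS.

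Among interiors with intermediate levels, some rested on discordant strands. The highest, that of Hoxc8, had 6 cytosines at 63.7% and could not be measured once those CpGs were left out, and the same held for Hoxa2, with 3 cytosines at 45.1%. The Hoxc10 interior, of a gene of the hindlimb field, kept 17 of its 19 cytosines and stood at 41.6% after 42.4%. The Hoxd12 interior kept 4 of 6 cytosines and stood at 37.8% after 43.2%. Some Hox CpGs were intermediate on both strands. Of the 2415 CpGs, 169 (6.998%) were between 20 and 60% on both strands, against 5.80% in the nuclear genome, and 27 of them lay in Hoxd3. In the Hox promoter stretches, 155 of 157 CpGs outside a CCGG were under 30% on both strands and 2 above 50% on both. Of the 36 in a CCGG, 7 were under 30% on both strands and 2 above 50% on both. Outside the promoter stretches the CCGG context was not known. Neighbouring Hoxd3 tiles with 22 and 11 cytosines were at 50.7, 45.3 and 44.2% and at 54.7, 54.8 and 54.3% in Control. In CSDS they were at 49.2, 35.9 and 36.1% and at 53.4, 45.3 and 46.2%. Hoxd3, which patterns the neck vertebrae, had its start near 10% and this block at about 50% within 1 gene.

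The group comparison asks whether stress exposure came with another methylation level. No Hox gene region passed a quasi-binomial F test with Benjamini-Hochberg adjustment over all genes, where a call needed an adjusted p under 0.05 and a difference of at least 10 points. The share called over all 17338 gene regions was 0%. The lowest adjusted p of a Hox region was 0.104, and 22 of 38 had an unadjusted p under 0.05, against 37.3% of all regions. By edgeR, 14 of 38 had an adjusted p under 0.05, against 20% of all, and none of those differed by 10 points. The 52 gene-end windows, 29 interiors and 227 tiles gave 0 calls as well, among all windows, interiors and tiles of which 0% were called. Unadjusted p was under 0.05 in 15 windows (34.3% of all windows), 8 interiors (22.6% of all) and 82 tiles (15.6% of all). By edgeR an adjusted p under 0.05 was reached by 1 window (1.61% of all), 0 interiors (0.118% of all) and 0 tiles (0% of all).

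All 38 Hox regions had a lower mean in CSDS than in Control, as did 94.7% of all gene regions. The median difference was -3.62 points for Hox regions and -2.82 points for all. Every CSDS library lay below every Control library in 16 of the 38, against 37.4% of all. CSDS replicates 2 and 3 were below all other libraries in 38 of 38, against 79.8% of all. CSDS replicate 1 was at or above the lowest Control library in 22 of 38, close to the 58.8% of all regions. Without CSDS replicate 1, 37 of 38 had an adjusted p under 0.05 by the same test, against 54.8% of all, and none differed by 10 points. The same was found in 40 of 52 windows, against 67.8% of all windows, and in 15 of 29 interiors, against 21% of all interiors.

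Measures outside the Hox genes moved in the same libraries. The share of mitochondrial CpG cytosines read as methylated, a median over 27 cytosines of DNA that carries little or no CpG methylation, was 8.90, 8.84 and 10.04% in Control and 8.50, 4.41 and 4.53% in CSDS. The median of 26 housekeeping gene ends was 13.9, 14.3 and 14.1% in Control and 12.98, 8.14 and 9.57% in CSDS. When each library's mitochondrial share was subtracted and the rest rescaled, the Hox difference went from -3.54 to -0.408 points, and that of all gene regions from -2.83 to -0.364 points. With the housekeeping median in its place the Hox difference was 0.213 points. That correction put some levels below 0, as in Hox DNA with at least 20 listed cytosines within 100 bp, at -1.05% in Control. A level below 0 is not possible, so the housekeeping correction takes away too much there. After the mitochondrial correction 25 Hox regions were lower in CSDS and 13 higher, a share lower that is close to the 64% of all regions. The count lower was 18 when Control replicate 2 was left out and 32 when Control replicate 3 was, the lowest and highest over the libraries left out. The mean Hox difference thus kept its sign under the mitochondrial correction and turned under the housekeeping one, and the part of these shares in it was not tested.

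**Figure D5:**
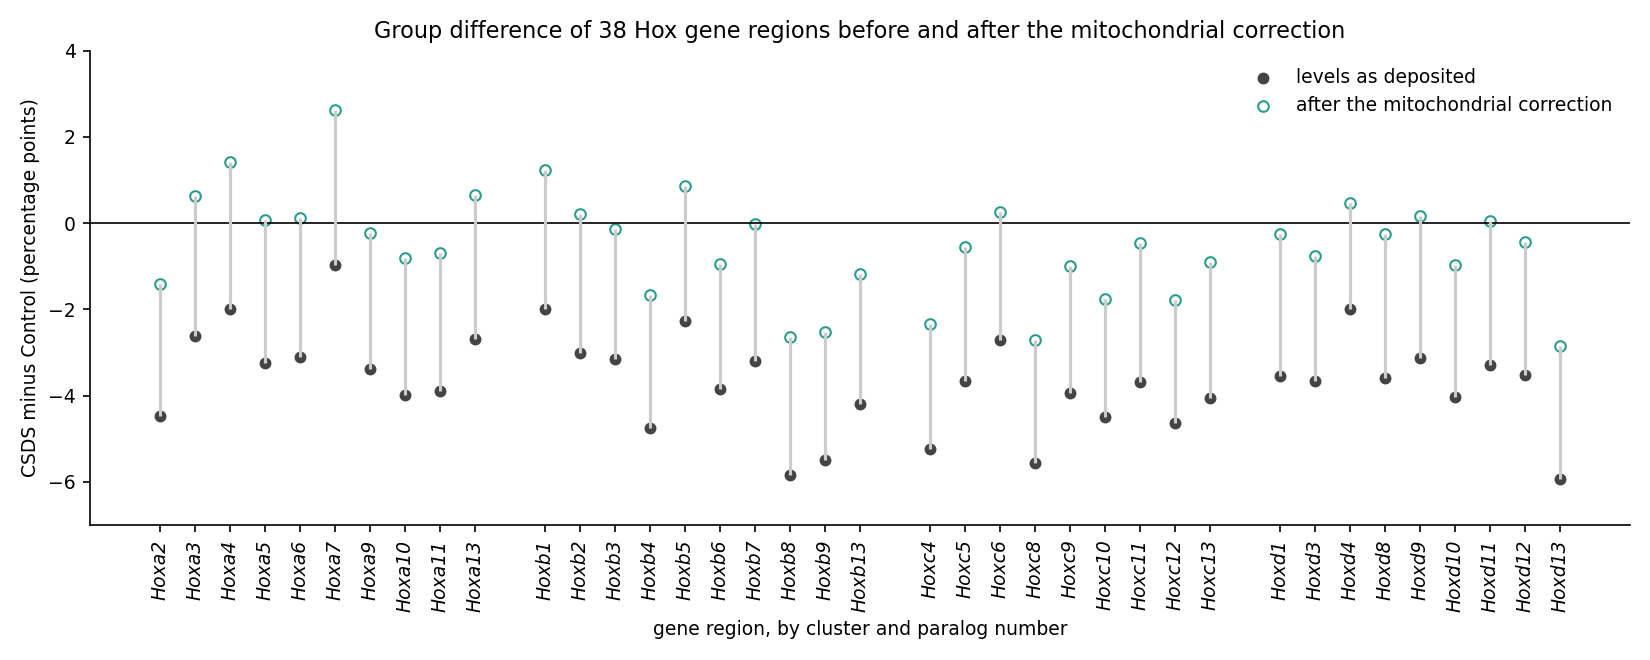
CSDS minus Control difference (y axis, percentage points) of each of the 38 Hox gene regions (x axis), as deposited (filled) and after the mitochondrial correction (open). All 38 are below 0 as deposited, and 25 are below 0 after the correction.

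In HoxA the largest differences were in Hoxa2, which patterns the second pharyngeal arch, and in Hoxa10, a gene of the uterus and lumbar segments. The Hoxa2 region was at 18.3, 16.4 and 16.4% in Control and 15, 10.9 and 11.8% in CSDS, a difference of -4.48 points (adjusted p 0.140 by the F test). Hoxa10 was at 16.6, 15.3 and 14.5% and then 14.9, 9.49 and 10.04% (adjusted p 0.118). The groups were apart in Hoxa2 and overlapped in Hoxa10. Hoxa7, a thoracic gene with the lowest Control level, was at 9.53, 9.19 and 12.1% in Control and 14, 6.26 and 7.67% in CSDS, so that the highest and the lowest library were both from CSDS. Its difference of -0.973 points became 0.552 without CSDS replicate 2. Hoxa4, at 12.3, 12.2 and 12.7% and then 12.9, 8.74 and 9.54%, was the only Hox region whose CSDS libraries all lay above the Control libraries after the mitochondrial correction, by 1.42 points, and 2.9% of all regions did so. Hoxa9, the second highest of the cluster in Control, was at 16.1, 17.2 and 16.1% and then 14.6, 11.9 and 12.8%. The remaining genes Hoxa3, Hoxa5, Hoxa6, Hoxa11 and Hoxa13 had Control means of 13.1 to 16.01% and differences of -3.89 to -2.61 points, with overlapping groups.

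In HoxB the largest differences were in Hoxb8, known from myeloid progenitors, and Hoxb9, a thoracic gene. Hoxb8 was at 11.99, 12.6 and 9.92% in Control and 6.87, 4.96 and 5.15% in CSDS, a difference of -5.83 points (adjusted p 0.104 by the F test). Of its 54 cytosines, 52 lay in the window at its far end. That window overlaps the start window of Hoxb7, so the values of Hoxb8 and of the Hoxb7 start share cytosines. In Hoxb8 none of the 16 CpGs measured on both strands was strand-discordant, and the rest of its 54 cytosines could not be judged. Hoxb9 was at 19.4, 17.0 and 18.3% and then 15.5, 10.6 and 12.1%, a difference of -5.49 points (adjusted p 0.107). In both genes all CSDS libraries, replicate 1 included, were below the lowest Control library. After the mitochondrial correction this held in Hoxb9, by -2.52 points, and the Hoxb8 groups overlapped at -2.63 points. The highest levels of the cluster were in Hoxb6, at 22.6, 24.4 and 21.9% and then 22.6, 17.2 and 17.6%, and in Hoxb3, at 21.2, 20.4 and 19.6% and then 20.3, 14.96 and 16.4%. Hoxb2, a hindbrain gene, was at 15.8, 16.02 and 15.4% and then 15.3, 10.6 and 12.3%. The remaining Hoxb1, Hoxb4, Hoxb5, Hoxb7 and Hoxb13 had Control means of 16.4 to 19.1% and differences of -4.75 to -1.99 points.

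In HoxC the groups were apart in 6 of 9 genes as deposited, against 37.4% of all regions. After the mitochondrial correction 1 of the 9 was apart with CSDS lower, against 9.27% of all regions. Hoxc8, which acts in the brachial spinal cord, was at 21.1, 18.9 and 22.7% in Control and 18.8, 13.1 and 14.1% in CSDS, a difference of -5.56 points (adjusted p 0.113 by the F test). Hoxc4, a neck and upper thorax gene, was at 21.9, 19.5 and 20% and then 18.8, 12.8 and 14.04%, a difference of -5.24 points (adjusted p 0.116). Their CSDS libraries were all below their Control libraries, with CSDS replicate 1 close to the lowest Control library in both. Hoxc12 was at 22.6, 21.6 and 23.6% and then 21.1, 16.3 and 16.5%, and its groups were still apart after the mitochondrial correction, by -1.79 points. Hoxc10 was highest of the cluster, at 26.5, 27.9 and 23.8% and then 24.2, 19.4 and 21.1%, and its groups overlapped. The lowest levels were in Hoxc11, at 14.3, 15.8 and 14.1% and then 14.1, 9.39 and 9.69%, and in Hoxc13, a gene of hair and nails, at 17.1, 15.1 and 15.2% and then 14.8, 9.99 and 10.4%. Hoxc5, Hoxc6 and Hoxc9 lay at 17.6 to 22.6% in Control with differences of -3.94 to -2.71 points.

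In HoxD the largest difference was in Hoxd13, at the tail end of the cluster. It was at 12.5, 14.9 and 16.6% in Control and 10.9, 7.86 and 7.45% in CSDS, a difference of -5.92 points (adjusted p 0.104 by the F test). The groups were apart, and remained apart after the mitochondrial correction, by -2.86 points. With CSDS lower, such separation after the correction was found in 3 of 38 Hox regions (Hoxb9, Hoxc12 and Hoxd13) and in 9.27% of all regions. After the housekeeping correction it was found, with CSDS lower, in Hoxb9 alone of the 38 and in 5.82% of all regions. The groups then overlapped in Hoxc12 (-1.27 points) and Hoxd13 (-2.33 points). In 8 of the 38 all CSDS libraries then lay above all Control libraries, as in 1420 of all 17338 regions. Some of the 8 had corrected Control means below 0, such as Hoxa7 at -4.45%. Hoxd10 was at 17.4, 18.3 and 17.8% and then 16.5, 12.3 and 12.6%, a difference of -4.03 points (adjusted p 0.106). The Hoxd4 region was at 37.0, 35.3 and 37.0% and then 36.4, 33.1 and 33.9%, and Hoxd3 at 23.3, 23.1 and 22.8% and then 22.2, 17.8 and 18.2%. Hoxd8, a trunk gene with the lowest level of the cluster, was at 12.2, 11.3 and 11.5% and then 10.2, 6.86 and 7.32%, with the groups apart. Hoxd11, which patterns the forearm, was at 13.2, 13.1 and 12.3% and then 12.8, 7.64 and 8.27%, with CSDS replicate 1 inside the Control range. Hoxd1, Hoxd9 and Hoxd12 had Control means of 13.2 to 18.5% and differences of -3.54 to -3.12 points.

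The clusters were also compared by position within the gene. In the start-end part, within 1 kb of an annotated start, HoxB was at 17.2, 17.4 and 15.9% in Control and 14.2, 9.93 and 11.1% in CSDS. HoxC was there at 17.5, 17.0 and 16.6% and then 14.8, 10.3 and 10.8%. In both, CSDS replicate 1 was also below every Control library, with differences of -5.09 and -5.07 points. HoxA starts were at 13.5, 14.3 and 13.8% and then 13.97, 9.16 and 9.91%, and HoxD starts at 14.4, 15.5 and 14.5% and then 13.96, 9.97 and 10.1%. Their differences were -2.88 and -3.47 points, and CSDS replicate 1 lay inside the Control range in HoxA and just below it in HoxD. After the mitochondrial correction the start-end differences were 0.424 in HoxA, -2.05 in HoxB, -2.02 in HoxC and -0.243 in HoxD. HoxC libraries were then still apart and HoxB libraries overlapped. After the housekeeping correction the difference was 1.11 in HoxA, with every CSDS library above the Control libraries. The HoxA Control mean was then -0.238%, below 0. The difference was 0.403 in HoxD, and -1.50 in HoxB and -1.48 in HoxC, with the groups apart in the last 2. Leaving out 1 library at a time gave -2.95 to -1.50 in HoxB and -2.66 to -1.60 in HoxC after the mitochondrial correction. After the housekeeping correction it gave -2.03 to -1.19 in HoxB and -1.72 to -1.105 in HoxC. In the interior parts the differences lay between -0.688 in HoxD and 0.007 in HoxB after the mitochondrial correction. After the housekeeping correction they lay between -0.0806 in HoxD and 0.636 in HoxB. These means have no test of their own, and the difference between clusters was not tested.

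Among single start windows, the groups were apart in 8 of 31, namely Hoxa2, Hoxb4, Hoxb7, Hoxb9, Hoxc8, Hoxc9, Hoxc13 and Hoxd13. Every CSDS library lay below every Control library in 16 of all 52 Hox windows, against 31.9% of all windows. After the mitochondrial correction 4 of the 31 start windows were apart (Hoxb7, Hoxc8, Hoxc13 and Hoxd13), Hoxa2, Hoxb9 and Hoxc9 overlapped, and Hoxb4 turned to a difference of 0.304 points. Over all 52 windows 7 were then apart and lower, against 7.77% of all windows. The Hoxc9 start was at 22.2, 22.8 and 18.8% in Control and 14.2, 12.1 and 14.1% in CSDS, a difference of -7.80 points. The Hoxb9 start was at 17.7, 14.2 and 14.02% and then 10.9, 7.56 and 8.78%, a difference of -6.22 points. Hoxb7 was at 12.5, 13.1 and 13.2% at its start and then 8.68, 5.73 and 5.88%, a difference of -6.14 points. The Hoxb7 start window overlaps the Hoxb8 region, so it does not stand apart from the Hoxb8 difference. None of these start windows passed the test. Their corrected differences were -5.12, -3.19 and -3.02 points. A lower mean in CSDS was found in 51 of 52 Hox windows, against 91.5% of all windows. The other was the Hoxa9 start, with 4 cytosines at 35.2, 46.0 and 28.4% and then 31.1, 46.3 and 41.8%. The Hoxb6 start and the Hoxb5 far end also stood on few cytosines, 6 and 4. The former was at 35.8, 35.3 and 30.1% and then 29.5, 13.3 and 30.3%. The latter was at 40.3, 41.4 and 32.1% and then 31.7, 32.5 and 29.7%, and the groups overlapped in all 3.

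At 500 bp, 5 of the 227 Hox tiles differed by at least 10 points between group means, as did 2965 of all 162882 tiles. All 5 were lower in CSDS, and none was called. A tile just before the Hoxc9 gene, with 18 cytosines, was at 8.89, 28.3 and 19.9% in Control and 6.30, 5.61 and 7.20% in CSDS, a difference of -12.7 points. The Control libraries were widely spread there and the CSDS libraries close together. A Hoxa10 interior tile was at 28.7, 29.1 and 26.7% and then 23.1, 9.501 and 14.1%, and it rested on 4 cytosines. A Hoxb6 start tile, also of 4, was at 44.3, 51.8 and 40.6% and then 44.2, 19.9 and 39.5%, with CSDS replicate 2 far below the other libraries. Neither could be measured once strand-discordant CpGs were left out. A Hoxa3 interior tile of 9 cytosines was at 16.1, 21.1 and 16.3% and then 9.68, 5.24 and 6.44%. A Hoxc4 interior tile of 7 cytosines was at 42.0, 37.5 and 39.7% and then 30.8, 30 and 28.01%. In the Hoxa10, Hoxa3 and Hoxc4 tiles all CSDS libraries, replicate 1 included, were below the Control libraries, and after the mitochondrial correction the groups were still apart, by -10.4, -8.08 and -8.35 points. The next largest differences were -8.81 points in a tile of the Hoxd11 interior near the Hoxd10 start, -8.79 at the Hoxb7 far end and -8.29 at the Hoxd13 start. Without CSDS replicate 1, 108 of the 227 tiles had an adjusted p under 0.05 by the F test, against 17.6% of all tiles. Of the Hox tiles, 6 also differed by 10 points. Over all 162881 tiles tested, 2308 met both conditions with CSDS lower and 28 with CSDS higher. The 6 Hox tiles included the Hoxc9 (-12.6 points), Hoxa3 (-12.0), Hoxc4 (-10.8) and Hoxd11 (-12.2) tiles. Groups were apart and lower in CSDS in 58 of 227 Hox tiles, against 15.7% of all, and after the correction in 13, against 7.67% of all.

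Cofactors and regulators of Hox genes were measured at the gene end with more cytosines. The list holds 8 measured genes of the Pbx, Meis and Pknox families, which bind DNA with Hox proteins, 3 Cdx genes, which switch on Hox genes, both Evx genes beside the clusters, 14 Polycomb genes, which repress Hox genes, 5 trithorax genes, which keep them active, and 3 ParaHox genes. Of these 35 genes 0 were called by the F test, against 0% of 14684 genes measured the same way. An unadjusted p under 0.05 was found in 21, against 40.8% of all, and a lower mean in CSDS in 34, against 95% of all. Their median difference was -3.37 points, beside -3.33 for 36 Hox genes measured the same way and -3.35 for 14684 genes.

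The label of the cells was checked by imprinted control regions, placed approximately. Those that carry methylation in male germ cells stood at 97.9% (H19), 97.7% (Meg3) and 89.8% (Rasgrf1) in Control. Those that lack it in male germ cells stood at 28.4% (Snrpn), 22.4% (Peg3) and 16.8% (Kcnq1ot1) in Control and at 16.9, 20.3 and 14.5% in CSDS. In Snrpn the CSDS libraries were all lower, by -11.5 points as deposited and -9.32 after the mitochondrial correction, and these values were not tested for a part in the Hox differences. Gene ends of 8 measured germ cell markers of 10 had a median of 22.8%, of 6 Sertoli cell markers 22.8%, of 3 Leydig cell markers of 5 49.3%, and the 1 measured immune marker of 3 was at 95.0%. Their median differences were -3.68, -2.61, -2.94 and 0.118 points. Methylation of gene ends does not give the share of a cell type.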

How the data were processed

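RRBS libraries of male germ cell DNA (3 Control, 3 CSDS, by title) were made with a Zymo-Seq kit, per the labels' protocols. Trim Galore 0.5.0, Bismark 0.20.0 and GRCm38 are named in the submitters' processing notes. Per the file headers, the deposited values are a cytosine's position, strand and coverage (a read count), and the percent of reads with C and T. Deposited percent times count gave whole read counts, and no deposited coverage is under 10. Other filters are not given in the sources used here.

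Cytosines listed in all 6 libraries were used, without the top 0.1% of coverage in any library, which left 2207591 and took no Hox cytosine. Levels are means over cytosines with equal weight. Counts summed over gene regions, windows of 1 kb either side of gene ends, interiors and 500 bp tiles, each with at least 3 cytosines, were fitted by a quasi-binomial model (R 4.3.3, dispersion moderated with limma 3.58.1 and held at 1 or above), with Benjamini-Hochberg adjustment over all features of a kind. edgeR 4.0.16 on the counts was an alternative. The script was tested on simulated data. The start of a gene was its outermost annotated end on its strand; strand came from the RefSeq promoter table for 22 members, and the other members took that of their cluster. Where the table's start differs (Hoxb1, Hoxb8, Hoxc4, Hoxd10 and second starts of Hoxa10 and Hoxd11), windows follow the gene bounds.

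Named were, per cluster, the 2 regions with the highest and lowest Control level and the largest differences, the 5 windows and interiors with the highest level, the 8 tiles with the highest level and largest difference, and the genes with fewest cytosines. Other single features were named after their values were seen. Members and lists were chosen with earlier results of these data known.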

Additional observations from a re-analysis of the deposited data

How the results depend on the processing

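Counts of Hox regions, windows, interiors and tiles called were 0 under every alternative run (minimum coverage of 20, no coverage cap, strands summed, strand-discordant CpGs left out, limma, edgeR, no lower limit on the dispersion, at least 10 cytosines, 5 kb flanks, 500 bp windows, 200 bp tiles), except for tiles without CSDS replicate 1. As a call needs 10 points and the largest Hox differences were -5.92 in regions, -9.39 in windows and -9.07 in interiors, a count of 0 there says little. Adjusted p alone was under 0.05 without CSDS replicate 1 in 37 of 38 regions, 40 of 52 windows, 15 of 29 interiors and 108 of 227 tiles, by edgeR in 14 regions and 1 window, and in 0 under the other alternatives. Leaving out 1 library gave 0 to 6 tiles, the 6 without CSDS replicate 1. Of all 162881 tiles, 2308 were then called lower and 28 higher in CSDS. The replicate block, which pairs libraries by number, gave 0 calls in all 4 kinds. Same-numbered Control and CSDS libraries did not deviate together (correlations -0.041, -0.048 and 0.003), and none of the 3 Control libraries correlated best with the CSDS library of its own number, so numbers were not used as pairs. The mitochondrial correction gave mean differences of -0.408 points over all Hox cytosines, 0.193 in HoxA, -0.527 in HoxB, -1.10 in HoxC and -0.456 in HoxD, and the housekeeping correction gave 0.213, 0.860, 0.0787, -0.528 and 0.169. Regions with a lower mean in CSDS were then 25 and 17 of 38, and were 30 with CSDS replicate 1 alone against Control. The corrections of this count, CSDS replicate 1 alone, leaving out each library for this count and the strand filter were chosen after seeing the data. Both corrections subtract a share that was lower in CSDS replicates 2 and 3, and beyond that the cause was not tested. Leaving out 1 library turned the direction of some small differences, none of them called. The range was -3.32 to 0.552 points for the Hoxa7 region, -3.43 to 1.10 for the Hoxd4 start window and -0.893 to 7.91 for the Hoxa9 start window. For tiles it was -3.91 to 0.670 in the Hoxa3 interior, -0.631 to 2.69 before the Hoxd4 start and -5.61 to 0.345 across that start.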
